A study of Tigriopus californicus with 9 samples.

Results

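The genes described here are 58 of the 13758 features measured in the copepod Tigriopus californicus, chosen by the words of their predicted protein names: glutathione, superoxide dismutase, catalase, peroxiredoxin, thioredoxin, glutaredoxin, metallothionein, ferritin or gamma-glutamylcysteine. The rule itself used no measured value. By name, 5 were microsomal glutathione transferases and 17 were other glutathione transferases, and these 22 are reported apart from the 12 enzymes that remove reactive oxygen (5 superoxide dismutases, 1 catalase, 4 glutathione peroxidases and 2 peroxiredoxins). The other 24 were 2 reductases, 3 glutaredoxins, 7 thioredoxin domain proteins, 2 glutathione synthetases, 4 enzymes of the glyoxalase pathway, 4 ferritins, the copper chaperone of superoxide dismutase and a yolk protein whose name holds a superoxide dismutase part. The count of features named metallothionein was 0.

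Tigriopus californicus is a small crustacean of coastal splash pools. PolyA RNA was sequenced from pools of 400 to 500 whole animals with all stages mixed, held for 2 h in water at 20 °C before extraction. The groups were animals of the San Diego population (SD, n = 3 libraries), animals of the Santa Cruz population (SCN, n = 2), hybrids of SD females with SCN males (SDf x SCNm, n = 2) and hybrids of SCN females with SD males (SCNf x SDm, n = 2), and the growth protocol describes breeding hybrids to generation 3 without giving the generation of each pool. Strains, temperature and pooling were the only other descriptions in the labels, and age was given only as mixed stages. The labels mark SD 3 and SCN 2 as copies of records held under other sample numbers. The titles define the crosses, since the source field of the SCNf x SDm pair gives the reverse cross. Whether libraries of a group were separate cultures is not stated in the labels, and the p-values therefore reflect only the spread among these libraries, possibly technical. In whole-animal pools, fewer cells of a type and less RNA per cell cannot be told apart.

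Respiring cells leak superoxide, which superoxide dismutases turn into hydrogen peroxide, and catalase, glutathione peroxidases and peroxiredoxins then remove the peroxide. Glutathione is the main small thiol of animal cells: synthetases make it, peroxidases and transferases spend it, and reductases restore it with NADPH. Glutathione transferases join it to reactive foreign or self-made molecules, and ferritin cages store iron that would otherwise feed radical chemistry.

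Reads recovered from the RPKM steps numbered 0.850 to 15.0 M (mega-reads) a library, and the shallowest were SD 3 (0.850) and SCN 2 (1.35), which shared sequencing run 3. Run 1 held SD 1 and SCN 1, run 2 held SD 2, run 4 held SDf x SCNm 1, and run 5 held the remaining 3 hybrid libraries. No run held parents and hybrids together: sequencing run and hybrid origin cannot be told apart. SCN 2 stood apart from the other libraries: it was the highest of the 9 in 27.6% of the 58 genes (16) and the lowest in 24.1% (14), against 14.0% and 44.3% of all features. SCNf x SDm 2 was the highest in 37.9% of the genes (22) and in 9.05% of all features, and SD 2 was the lowest in 31.0% of the genes (18) and in 15.5% of all features. The 56 genes whose reads could be recovered had at the fewest 1 read in a library, in SD 3.

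Levels are given as RPKM, reads per kilobase of contig and M reads, and therefore compare genes per length. The yolk protein with the superoxide dismutase part (Contig1761cap) was the most abundant of the 58, at 753 to 11449.5 RPKM. Of the others, the highest means over the 9 libraries belonged to ferritin heavy chain 1 (Contig8031, 522 to 4763 RPKM), a glutathione transferase 1-like protein (Contig1744cap, 702 to 2903 RPKM) and a glutathione peroxidase (Contig6835, 399.9 to 1839 RPKM). The least abundant were a superoxide dismutase (Contig1323cap, 3.68 to 9.38 RPKM) and a glutathione transferase named isoform d (Contig71596, 3.50 to 9.47 RPKM). Such low values are raised by a constant held in the deposited RPKM. It equalled 1.12 reads in SD 3, where Contig1323cap had 1 recovered read.

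**Figure D1:**
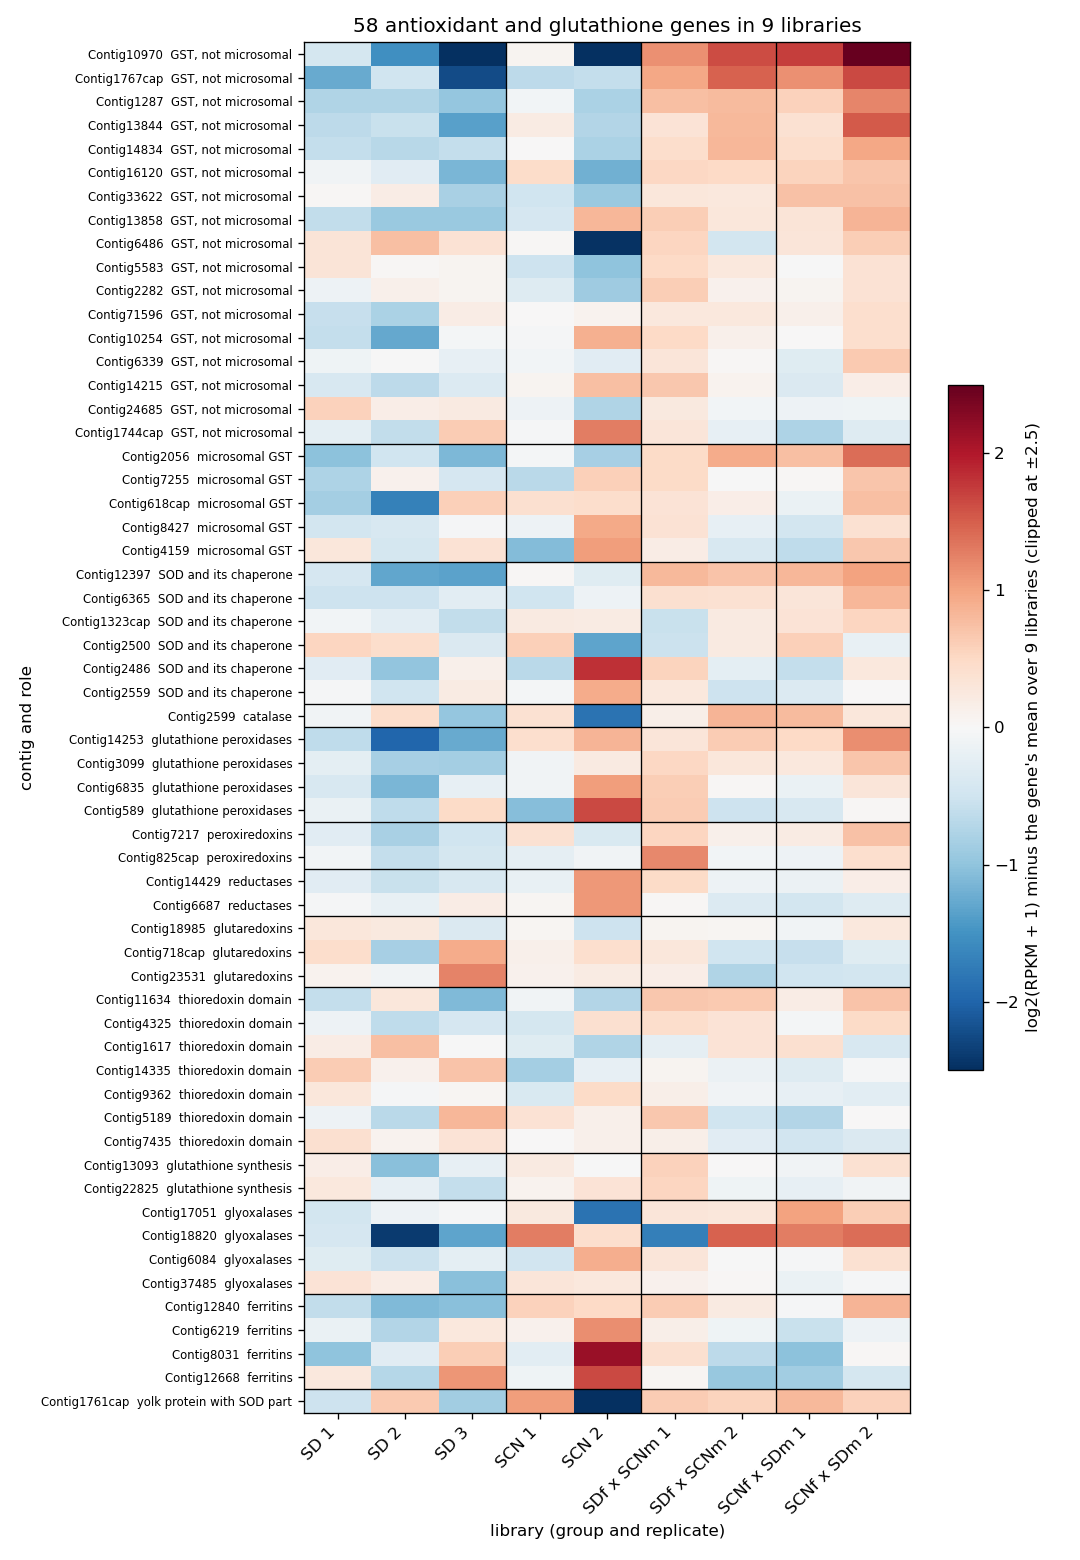
Heat map of the 58 genes (lines, grouped by role) in the 9 libraries (columns, by group and replicate). Colour gives log2(RPKM + 1) minus the gene's mean over the 9 libraries, clipped at 2.5 either way, and the upper transferases are red in all 4 hybrid libraries while the lone SCN 2 column holds many of the darkest cells of both colours.

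Hybrids were first compared with the midparent, that is, the average of both parental group means after log2 transformation, which asks whether mixed genomes express these genes at another level than the average of their parents. Of the 58 genes, 5 rose and 0 fell, against 0.8% of all features called, 0.792% higher and 0.00727% lower (limma over all 9 libraries, Benjamini-Hochberg adjusted over all features, threshold 0.05). Of these 5, 4 were glutathione transferases and 1 a superoxide dismutase. In 12 of the 58 genes all 4 hybrid libraries lay above all 5 parental ones, against 5.86% of all features. All 4 lay below the parents in 0 genes, against 1.5% of all features. Of those 12, 8 were transferases, 3 were enzymes that remove reactive oxygen and 1 was a glyoxalase. Differences over the 58 genes had a median of log2 0.36, with 41 above 0, against 62.1% of all features, and 36 above the median of all features, which was 0.15. At an unadjusted p under 0.05 there were 20 of 58, against 16.5% of all features.

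A glutathione transferase (Contig1767cap) had 65.7, 112 and 33.2 RPKM in the SD libraries, 101 and 104 in SCN, 314 and 444 in SDf x SCNm and 353 and 505 in SCNf x SDm. Every hybrid library lay above every parental one. On the log2(RPKM + 1) scale, where changes of low genes come out too small, it rose 4.89-fold over the midparent, log2 2.29 (SE 0.36, adjusted p = 0.0239).

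A further transferase (Contig10970) showed the largest rise of the 58, to 729.8 ± 385 RPKM (standard deviation, n = 4) in hybrids. Its values were 139, 64.9 and 29.5 in SD, 198 and 27.7 in SCN, 415 and 587 in SDf x SCNm and 626 and 1290.0 in SCNf x SDm. The hybrids lay above all parents, and the run 3 libraries SD 3 and SCN 2 were the lowest parents. It rose 9.48-fold, log2 3.24 (SE 0.60, adjusted p = 0.0447), and without both run 3 libraries the difference was log2 2.27 (adjusted p = 0.0537). Its whole reads could not be recovered.

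The transferase named isoform d (Contig1287) had 305, 306 and 266 RPKM in the SD libraries, 494 and 300.4 in SCN, 873 and 893 in SDf x SCNm and 766 and 1204 in SCNf x SDm. The pair of SDf x SCNm libraries nearly coincided, and SCN 1 was the highest parent. It rose 2.74-fold, log2 1.46 (SE 0.28, adjusted p = 0.0495). Microsomal glutathione transferase 1 (Contig2056), a membrane enzyme that also reduces lipid peroxides in mammals, had 137, 196 and 126 RPKM in the SD libraries, 268 and 156 in SCN, 386 and 529.7 in SDf x SCNm and 467 and 732 in SCNf x SDm. All hybrids were above all parents, and the rise was 2.92-fold, log2 1.55 (SE 0.30, adjusted p = 0.0495).

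The superoxide dismutase that rose (Contig12397) had 65.7, 35.1 and 34.2 RPKM in the SD libraries, 89.6 and 71.0 in SCN, 155 and 146 in SDf x SCNm and 157 and 178 in SCNf x SDm. Its hybrid libraries spread over a narrow band from 146 to 178, above the highest parent, SCN 1. The rise was 2.68-fold, log2 1.42 (SE 0.27, adjusted p = 0.0489).

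**Figure D2:**
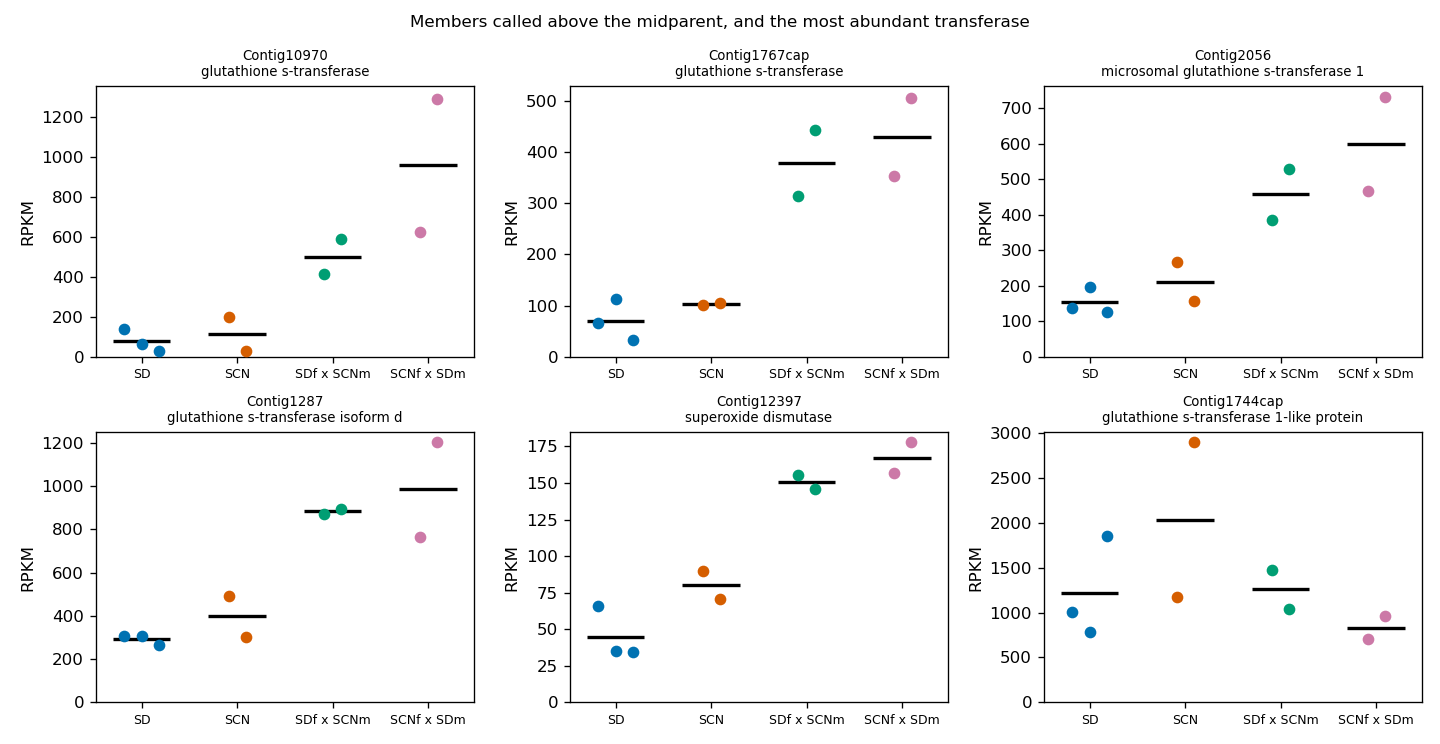
RPKM (vertical axes, each from 0) in the 9 libraries for the 5 genes that rose above the midparent and, last, the most abundant transferase, Contig1744cap. Points are libraries, horizontal bars are group means, and in the first 5 panels every hybrid point lies above every parental point.

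These 5 genes lay above the midparent in both crosses: SDf x SCNm and SCNf x SDm differed from it by log2 2.20 and 2.38 for Contig1767cap, 2.81 and 3.68 for Contig10970, 1.40 and 1.52 for Contig1287, 1.36 and 1.73 for Contig2056 and 1.35 and 1.50 for Contig12397. Over the 9 libraries their log2 levels moved together, with Pearson's r between 0.87 and 0.98 for the 10 pairs, a description of genes that were all called on the same difference, over libraries that differ in depth and run. Transferase copies that are nearly identical may share reads, and the rule by which shared reads were assigned is not stated in the labels or headers.

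The calls, more than the sizes of the differences, changed when libraries were left out. Of all features 110 passed in the main fit, 0 without SD 1, 96 without SD 2 and 33 without SD 3. Fewer features also passed without SCN 2 or any 1 hybrid library, so losing calls there is not particular to these genes. Without SD 1, without SCN 2 or without any 1 of the 4 hybrid libraries, 0 of the 58 genes passed. Without SD 2, without SD 3 or without both run 3 libraries only Contig1767cap passed, and without SCN 1 the count was 19 (17 higher and 2 lower), where 21.7% of all features passed, 17.3% higher and 4.44% lower. The differences kept their direction in every alternative setting: they ran from log2 2.07 to 2.499 for Contig1767cap, 1.26 to 1.57 for Contig12397, 1.24 to 1.63 for Contig1287, 1.29 to 1.74 for Contig2056 and 2.27 to 3.94 for Contig10970. The adjusted p over 15 alternative settings ran from 0.00892 to 0.17 for Contig1767cap, which passed in 8. It ran from 0.00994 to 0.28 for Contig12397 (4 passed), 0.00623 to 0.296 for Contig1287 (3) and 0.00683 to 0.287 for Contig2056 (3), and over 14 settings from 0.00403 to 0.25 for Contig10970 (4).

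Taking both kinds of transferase, 19 of 22 lay above the midparent and 18 above the median of all features, with a median difference of log2 0.58. Transferases whose hybrids also stood clear of the parents but which did not pass were Contig14834 (log2 1.18, adjusted p = 0.0762), transferase mu 3 (Contig13844, 1.33, adjusted p = 0.107), a transferase named isoform d (Contig33622, 0.96, adjusted p = 0.152) and Contig16120 (1.00, adjusted p = 0.224). Contig33622 had only 1 recovered read in SD 3 and 2 in SCN 2. For Contig14834 the libraries held 45.3, 42.4 and 45.3 RPKM in the SD libraries, 69.5 and 39.8 in SCN, 93.9 and 124 in SDf x SCNm and 94.5 and 137 in SCNf x SDm. Transferase mu 3 (Contig13844) had 29.3, 31.2 and 17.6 RPKM in the SD libraries, 53.7 and 27.4 in SCN, 59.0 and 82.4 in SDf x SCNm and 61.0 and 137 in SCNf x SDm. In both genes SCNf x SDm 2 was the highest library and SCN 1 the highest parent.

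The remaining transferases not named microsomal lay closer to the midparent. Another isoform d (Contig13858) differed by log2 0.83, Contig6486 by 0.62, kappa 1 (Contig5583), a class found in mitochondria and peroxisomes of mammals, by 0.59, and sigma 3 (Contig2282) by 0.58. A last isoform d (Contig71596) differed by 0.44, t1 (Contig10254) by 0.37, mu 3-like (Contig6339) by 0.31, Contig14215 by 0.17 and the C-terminal domain protein Contig24685 by 0.04. Only the most abundant transferase (Contig1744cap) had a negative difference among these 17, log2 -0.52 (SE 0.39, adjusted p = 0.546). It had 1008, 784 and 1853 RPKM in the SD libraries, 1171 and 2903 in SCN, 1478 and 1044 in SDf x SCNm and 702 and 959.9 in SCNf x SDm, so the hybrids lay within or below the parental spread and SCN 2 was the highest. Among the microsomal enzymes the other 4 did not pass: microsomal transferase 3 (Contig7255) had log2 0.50, Contig618cap 0.39, Contig8427 -0.04 and the most abundant, Contig4159 (340.3 to 1484 RPKM), -0.07.

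**Figure D3:**
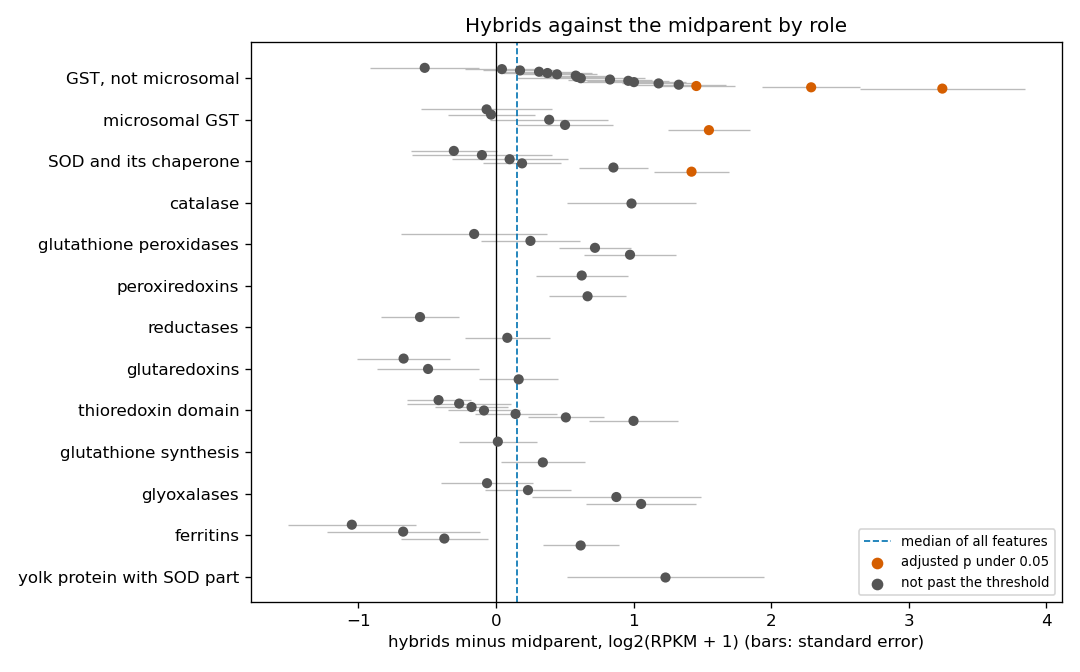
Hybrids minus midparent on the log2(RPKM + 1) scale (horizontal axis) for the 58 genes by role (vertical axis), with standard errors as bars, genes past the threshold in orange and the median of all 13758 features, 0.15, as a dashed line. Transferases reach furthest to the right, and 3 of 4 ferritins lie to the left of 0.

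Of the 12 enzymes that remove reactive oxygen, 10 lay above the midparent and 9 above the median of all features, with a median of log2 0.64, and 1 passed, the superoxide dismutase above. The 5 superoxide dismutases and their chaperone had a median of log2 0.14, which turned to -0.08 under quantile normalization. The median of all features, log2 0.15 in the main fit, turned negative under that normalization as well. Mitochondrial superoxide dismutase (Contig6365), which works where respiration leaks superoxide, had 191, 189 and 228 RPKM in the SD libraries, 192 and 248 in SCN, 359 and 354 in SDf x SCNm and 336 and 487 in SCNf x SDm. All hybrids exceeded all parents, yet with log2 0.85 (SE 0.25, adjusted p = 0.141) it did not pass. The most abundant superoxide dismutase (Contig2486) had 485, 300.2 and 651 RPKM in the SD libraries, 373 and 2093 in SCN, 873 and 503 in SDf x SCNm and 391 and 711 in SCNf x SDm, with SCN 2 far above the other 8 libraries. Its difference was log2 -0.10 (adjusted p = 0.943), that of Contig2500 was 0.10 and that of the scarce Contig1323cap 0.19. The copper chaperone that loads superoxide dismutase with its metal (Contig2559, 25.1 to 69.4 RPKM) had log2 -0.31.

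Catalase (Contig2599), which splits hydrogen peroxide, had 200.4, 293 and 109.8 RPKM in the SD libraries, 278 and 59.1 in SCN, 237 and 386 in SDf x SCNm and 369.8 and 262 in SCNf x SDm. Hybrids and parents overlapped, SCN 2 was the lowest library, and the difference was log2 0.98 (SE 0.47, adjusted p = 0.329). Without SCN 2 the catalase difference was log2 0.43, and without both run 3 libraries 0.24. The 4 glutathione peroxidases gave 0 calls. The phospholipid-hydroperoxide enzyme (Contig3099), which repairs oxidised membrane lipids, had 182, 122 and 119.6 RPKM in the SD libraries, 204 and 254 in SCN, 309.6 and 262 in SDf x SCNm and 259 and 352 in SCNf x SDm, with all hybrids above all parents and log2 0.72 (SE 0.26, adjusted p = 0.211). Glutathione peroxidase 7 (Contig14253), an enzyme of the endoplasmic reticulum in mammals, had 0.97 (adjusted p = 0.183), the abundant Contig6835 0.25 and the selenium-dependent enzyme (Contig589) -0.16.

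Peroxiredoxins reduce peroxides with electrons from thioredoxin. The peroxiredoxin-like protein (Contig825cap) had 708, 490.0 and 547 RPKM in the SD libraries, 631 and 695 in SCN, 1715 and 709 in SDf x SCNm and 679 and 989 in SCNf x SDm. SDf x SCNm 1 was far above every other library, and the difference was log2 0.62 (SE 0.33, adjusted p = 0.384). Thioredoxin peroxidase 2 (Contig7217) had 163, 112 and 139.9 RPKM in the SD libraries, 259.9 and 152 in SCN, 287 and 218 in SDf x SCNm and 228 and 330.1 in SCNf x SDm, with SCN 1 inside the hybrid range and log2 0.67 (SE 0.28, adjusted p = 0.279).

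Enzymes that restore reduced thiols lay near or below the midparent. Thioredoxin reductase 3 (Contig6687) had 162, 144 and 188 RPKM in the SD libraries, 170.1 and 347 in SCN, 168 and 130.0 in SDf x SCNm and 119 and 130.4 in SCNf x SDm. The hybrids overlapped the lower parental libraries, SCN 2 was the highest library, and the difference was log2 -0.55 (SE 0.28, adjusted p = 0.357). Glutathione reductase (Contig14429) had log2 0.08 (adjusted p = 0.922). The glutaredoxins, which reduce protein thiols mixed with glutathione, had log2 -0.67 for Contig23531, -0.49 for glutaredoxin 3-like (Contig718cap) and 0.16 for Contig18985, a domain protein named after a Drosophila gene, and 0 of 3 passed.

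Glutathione synthetase joins the last amino acid to make glutathione. Its features Contig13093 (24.1 to 75.6 RPKM) and Contig22825 (11.0 to 25.1 RPKM) had log2 0.34 and 0.01, and neither passed. Glyoxalases use glutathione to clear methylglyoxal, a by-product of sugar breakdown. The glyoxalase I-like protein (Contig17051) had 9.999, 12.9 and 13.9 RPKM in the SD libraries, 16.9 and 3.24 in SCN, 17.8 and 17.4 in SDf x SCNm and 29.6 and 22.2 in SCNf x SDm, with all hybrids above all parents and log2 1.05 (SE 0.40, adjusted p = 0.229). Its SCN 2 value rests on 4 recovered reads. The lactoylglutathione lyase family protein (Contig18820) had log2 0.87, the hydrolase that completes the pathway (Contig6084) 0.23 and the lyase-like Contig37485 -0.07.

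Of the 7 thioredoxin domain proteins 0 passed, with 3 above the midparent and a median of log2 -0.09, which was 0.04 without SCN 2. They are a mixed group by role: thioredoxin-like protein 4a (Contig11634), a splicing component in human cells, had log2 1.00 (SE 0.33, adjusted p = 0.167), while the membrane protein thioredoxin-related transmembrane protein 1-like (Contig7435) had -0.42 (adjusted p = 0.402). Domain protein 17-like (Contig4325) had 0.51, domain protein 11 (Contig1617) 0.14, transmembrane protein 2 homolog (Contig14335) -0.09, the family member trp26 (Contig9362) -0.18 and domain protein 9 (Contig5189) -0.27.

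Ferritins lay on the other side. Ferritin heavy chain 1 (Contig8031) had 532, 878 and 1636 RPKM in the SD libraries, 885 and 4763 in SCN, 1411 and 674 in SDf x SCNm and 522 and 1091 in SCNf x SDm. SCN 2 was far above every other library, and the hybrids overlapped the other 4 parents. The difference was log2 -0.67 (SE 0.56, adjusted p = 0.579). A heavy chain of lower level (Contig12668) had 65.6, 32.5 and 117 RPKM in the SD libraries, 50.4 and 172 in SCN, 56.3 and 27.6 in SDf x SCNm and 29.0 and 39.6 in SCNf x SDm, with log2 -1.05 (SE 0.47, adjusted p = 0.298) and overlapping groups. Contig6219 had log2 -0.38 and the ferritin subunit precursor (Contig12840) 0.62, so that 3 of 4 lay below the midparent and the median was log2 -0.53. Without SCN 2 that median was -0.09, and without both run 3 libraries it was 0.07 with 3 of 4 above the midparent.

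**Figure D4:**
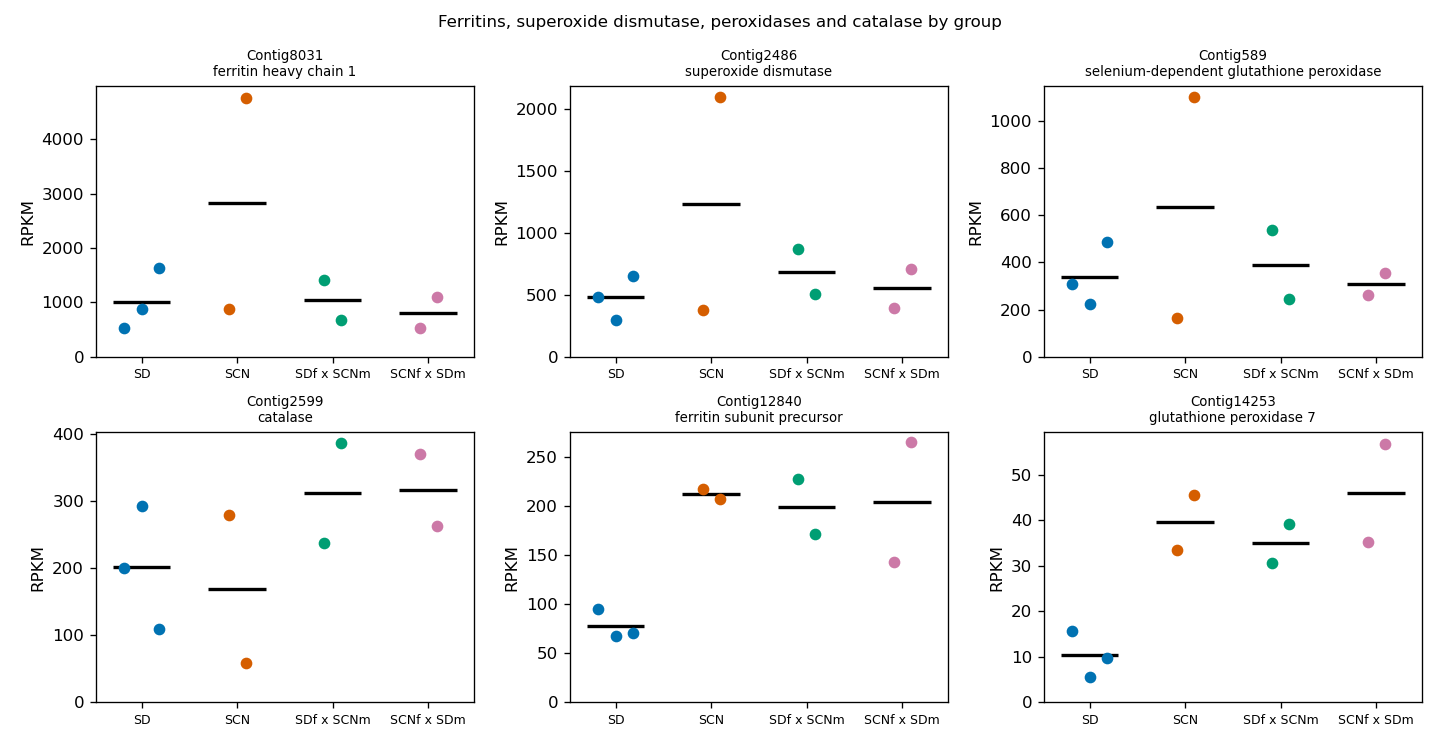
RPKM (vertical axes, each from 0) in the 9 libraries for genes of iron storage and of the removal of reactive oxygen. Points are libraries and horizontal bars are group means. SCN 2 is the upper SCN point for ferritin heavy chain 1, superoxide dismutase Contig2486 and the selenium-dependent peroxidase, and the lower one for catalase, whereas Contig12840 and glutathione peroxidase 7 have SD points well below both SCN points.

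The yolk protein with the superoxide dismutase part (Contig1761cap) had 3876, 8742 and 3048 RPKM in the SD libraries, 11449.5 and 753 in SCN, 8653 and 8238 in SDf x SCNm and 9759 and 8316 in SCNf x SDm. Its low libraries were those of run 3 and SD 1, and the difference was log2 1.23 (SE 0.72, adjusted p = 0.424). The other 4 features named vitellogenin, receptors left out, also had their lowest sum in SCN 2 (2847 RPKM), against 24143 in SCN 1, 8374 to 25101 in SD and 17829 to 29101 in hybrids. The 2 vitellogenin receptors summed to 390 RPKM in SCN 2 and 295 in SCN 1. Without both run 3 libraries the difference of the yolk protein was log2 0.10. Yolk protein is made by egg-producing females, and the part of their share of the pool was not tested.

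Tissue markers were counted in the same comparison, in which 62.1% of all features lay above the midparent and 0.792% were called higher. Features named for cuticle or chitin had 80 of 86 members above the midparent and 9 called, and their summed level was 29349 to 53004 RPKM in hybrids, 10816 to 26576 in SD and 10876 to 22723 in SCN. Features named for trypsin, carboxypeptidase or aminopeptidase were taken for gut by these words alone, without evidence of tissue. Of these, 51 of 70 lay above the midparent and 0 were called (17014 to 27248 RPKM in hybrids, 11956 to 17279 in SD, 9659 to 23838 in SCN). Muscle genes had 18 of 31 above and 0 called (7266 to 10006 in hybrids, 8135 to 10280 in SD, 7014 to 12605 in SCN). Germline genes had 5 of 18 above and 0 called (1644 to 2353 in hybrids, 3190 to 3810 in SD, 2076 to 2622 in SCN), and the 7 features named vitellogenin, which include the yolk protein above and 2 receptors, had 6 above and 0 called (26368 to 39150 in hybrids, 11839 to 34406 in SD, 3989 to 35887 in SCN). Among markers with recovered reads, 14 of 69 for cuticle, 1 of 65 for gut, 1 of 31 for muscle, 0 of 18 for germline and 0 of 2 for yolk had 0 reads in at least 1 library, and none had 0 reads in all 9. The part of tissue makeup in the rise of the transferases was not tested.

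Other genes of the pathway were taken by name. Their counts stand beside 62.1% of all features above the midparent and 0.792% called higher. Of 14 features that supply glutathione or its sulfur, 2 of which are transglutaminases by name, 5 lay above the midparent and 0 passed. The regulatory subunit of glutamate-cysteine ligase (Contig12523), which sets the rate of glutathione synthesis together with its catalytic partner, had 85.8, 108 and 97.7 RPKM in the SD libraries, 90.1 and 154 in SCN, 122 and 169 in SDf x SCNm and 144 and 179 in SCNf x SDm, with log2 0.50 (SE 0.26, adjusted p = 0.374). Of 3 features taken for NADPH supply 0 passed, and 1 of them, an NAD malic enzyme (Contig737), makes NADH by its name. A glucose-6-phosphate dehydrogenase (Contig3419) had 164, 158 and 70.1 RPKM in the SD libraries, 173 and 41.0 in SCN, 195 and 273 in SDf x SCNm and 271 and 275 in SCNf x SDm, all hybrids above all parents, with log2 1.30 (SE 0.44, adjusted p = 0.178), and another such feature (Contig12041) had log2 -0.55. The NAD malic enzyme had all hybrids (52.5 to 63.4 RPKM) below all parents (65.1 to 172), with log2 -0.60 (SE 0.30, adjusted p = 0.354). Regulators and repair enzymes gave 0 of 3. The NRF-related factor (Contig8508), of a family that switches on antioxidant genes in vertebrates, had 39.4, 71.4 and 22.0 RPKM in the SD libraries, 38.3 and 6.88 in SCN, 31.9 and 60.4 in SDf x SCNm and 68.9 and 34.7 in SCNf x SDm and log2 0.83 (adjusted p = 0.461). A last list of 66 features was matched by words for detoxification, but by name 32 of them are sulfotransferases of carbohydrates or lipids, which build glycans and sulfated lipids, and 17 are multidrug resistance transporters. Of the 66, 50 lay above the midparent and 1 passed, a carbohydrate sulfotransferase 11-like feature (Contig27587, log2 1.57, adjusted p = 0.0353), which belongs to those 32, of which 29 lay above. The transporters had 12 of 17 above, the other sulfotransferases 7 of 7 and the aldehyde dehydrogenases 1 of 8, with 0 passing in each.

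The parents were compared next, which asks how the populations differ in these genes at 20 °C. Of the 58 genes, 0 passed in either direction, against 0.429% of all features. At an unadjusted p under 0.05 there were 10 of 58, against 17.5% of all features. Differences, SD minus SCN, had a median of log2 -0.41 with 17 of 58 above 0, against 62.5% of all features, and the median of all features was 0.23. The enzymes that remove reactive oxygen had 10 of 12 below 0 and a median of -0.54, the transferases 15 of 22 and -0.36, and the ferritins 4 of 4 and -1.01. The SD libraries all lay below both SCN libraries in 11 genes, against 9.17% of all features, and all above them in 6, against 19.8%.

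Glutathione peroxidase 7 (Contig14253) had the smallest p. It had 15.7, 5.49 and 9.83 RPKM in the SD libraries, 33.6 and 45.6 in SCN, 30.6 and 39.3 in SDf x SCNm and 35.2 and 56.9 in SCNf x SDm. Its SD libraries held only 96, 7 and 3 recovered reads, and its SCN libraries 53 and 32. Each SD library was below both SCN libraries, and each hybrid library was in or near the SCN range. SD lay below SCN, log2 -1.93 (SE 0.45, adjusted p = 0.096), which did not pass, and the difference was -1.05 within run 1 and -2.11 within run 3. The ferritin subunit precursor (Contig12840) had 95.5, 67.2 and 70.6 RPKM in the SD libraries, 217 and 207 in SCN, 228 and 171 in SDf x SCNm and 143 and 266 in SCNf x SDm. Its SCN libraries lay close together although they came from different runs, all SD libraries lay below both, and the difference was log2 -1.45 (SE 0.37, adjusted p = 0.119), with -1.18 within run 1 and -1.54 within run 3. The lactoylglutathione lyase family protein (Contig18820) had 57.8, 13.9 and 30.5 RPKM in the SD libraries, 191 and 105 in SCN, 23.0 and 218 in SDf x SCNm and 190.5 and 206 in SCNf x SDm. SDf x SCNm 1 resembled the SD libraries and the other 3 hybrids lay near or above SCN 1. The parental difference was log2 -2.23 (SE 0.83, adjusted p = 0.219), with -1.70 and -1.74 within the runs.

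Genes on the other side were fewer. Thioredoxin-related transmembrane protein 2 homolog (Contig14335) had 123, 85.6 and 131 RPKM in the SD libraries, 43.6 and 68.9 in SCN, 83.2 and 71.7 in SDf x SCNm and 63.3 and 77.1 in SCNf x SDm, and SD lay above SCN in all libraries, log2 1.01 (SE 0.35, adjusted p = 0.2). Glutathione transferase kappa 1 (Contig5583) had 82.3, 66.9 and 68.8 RPKM in the SD libraries, 45.7 and 32.2 in SCN, 93.2 and 79.4 in SDf x SCNm and 65.2 and 84.2 in SCNf x SDm, with log2 0.90 (SE 0.33, adjusted p = 0.211) and 0.84 and 1.07 within the runs. The transferase Contig6486 had 82.5, 112 and 85.8 RPKM in SD and 67.6 and 11.2 in SCN, so that SCN 2 carried most of its log2 1.70 (adjusted p = 0.216): the difference was 0.28 within run 1 and 2.83 within run 3. The domain protein Contig24685 had 0.77 and domain protein 11 (Contig1617) 0.84, while isoform d (Contig13858) had -1.03, t1 (Contig10254) -1.07 and superoxide dismutase Contig12397 -0.88, and none of these passed.

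**Figure D5:**
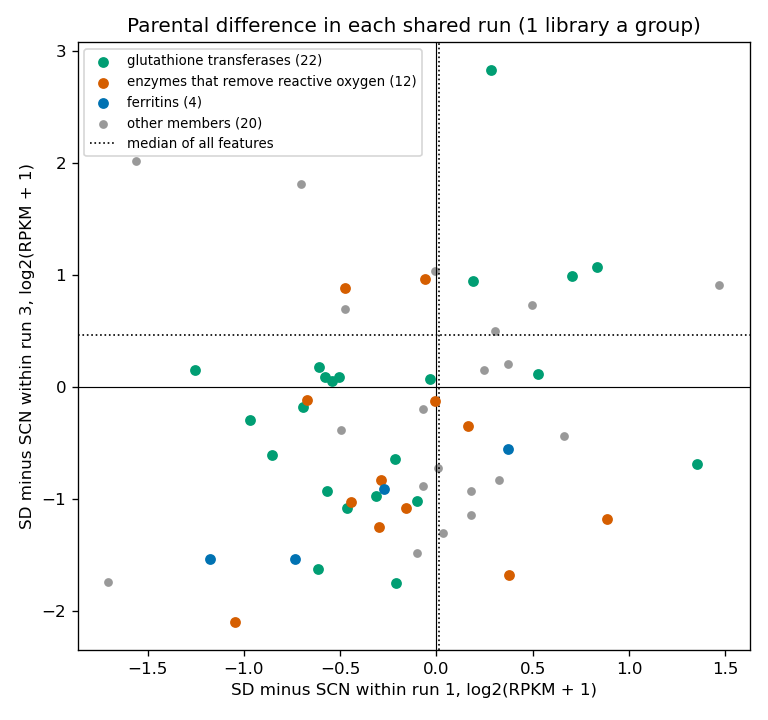
SD minus SCN on the log2(RPKM + 1) scale within run 1 (horizontal axis) and within run 3 (vertical axis) for the 58 genes, coloured by role, with 1 library a group in each run. Dotted lines are the medians of all features, 0.02 and 0.46. The lower left quadrant holds most enzymes that remove reactive oxygen and 3 of 4 ferritins, while several genes have opposite signs in the runs.

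Within run 1, 37 of 58 genes had SD below SCN with a median of log2 -0.13, and within run 3, 36 of 58 with a median of -0.41, beside all-feature medians of 0.02 and 0.46. For the enzymes that remove reactive oxygen the medians were -0.22 and -0.93. The transferases had -0.39 and -0.06, with 16 and 11 of 22 below 0. Without SCN 2, 2 of 4 ferritins lay below 0 and their median was log2 -0.14, the catalase difference turned from 0.53 to -0.58 and the median over the 58 genes was -0.29, with 37 below 0. Without SCN 1, where SCN is SCN 2 alone and is assumed to vary like the other groups, 15 of the 58 genes passed (4 higher and 11 lower in SD), where 22.4% of all features passed, 18.1% higher and 4.32% lower.

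Reciprocal hybrids carry mitochondria of different mothers, and both crosses were compared last. Of the 58 genes 0 passed, against 0% of all features, and the count at an unadjusted p under 0.05 was 0, against 0.283%. Differences, SDf x SCNm minus SCNf x SDm, had a median of log2 0.03 over the 58 genes and 0.05 over all features, with 30 of 58 above 0, against 56.7% of all features. The groups stood apart with SDf x SCNm higher in 6 genes and lower in 6, against 16.3% and 12.5% of all features. The largest was the lyase family protein Contig18820 (log2 -1.46, SE 0.91, adjusted p = 1), which rests on SDf x SCNm 1, since within run 5 the difference was 0.14. Contig10970 had log2 -0.86 and the most abundant transferase (Contig1744cap) 0.60. All 7 thioredoxin domain proteins and all 4 ferritins had positive values, from 0.06 to 0.45 and from 0.02 to 0.37. A pairing of the 4 hybrid libraries by crossed replicate number, chosen after seeing the data, called 41 features and 0 of the 58 genes.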

How the data were processed

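PolyA RNA of 9 libraries in 4 groups was analysed. The deposited values are RPKM for 13758 features, each pairing an SD with an SCN contig or a mitochondrial gene, per the file headers. The aligner, counting method, filters and reference are not stated in the labels or headers. Names come from the deposited files, and 0 contig identifiers matched the RefSeq gene table, so no coordinates or sequences are given.

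Low values fell on steps from which whole reads were recovered for 13540 features (98.4%), with 99.986% of their values within 0.05 read of a whole number, after removing an added constant of 1.12 to 18.4 reads. These reads give depth and 1 alternative. Replicates differed by more than sampling noise (chi-square per feature 11.8 to 64.3).

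The main test was limma 3.58.1 (R 4.3.3) with a mean-variance trend, fitted to log2(RPKM + 1) with 4 group means over 9 libraries, two-sided, with p-values adjusted by Benjamini-Hochberg over all features (threshold 0.05) and no filter on low values. It was tested on simulated data. A log-scale model was chosen because RPKM are not counts, and no count model was fitted to the recovered reads.

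Members and lists were chosen with earlier results of these data known. Values are named for members that passed, for the 5 smallest p in each direction of a comparison, for the most abundant of a role, for roles of at most 4 members and for members whose hybrids lay outside the parents. That names 47 of 58 members, and the other 11 were added for completeness after their values were seen. Alternatives were pseudocount 5, a mean RPKM of at least 5 (13266 features), quantile normalization, removal of the added constant, a replicate block, fits of the compared groups or with run as a block, fits without run 3 and fits without each library in turn.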

Additional observations from a re-analysis of the deposited data

Results flagged for a closer look

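In 5 of the 58 genes 1 of the 4 hybrid libraries lay far from the other 3 (its gap to the nearest library, divided by the range, passed Dixon's 95% critical value). For 4 values from a single normal distribution, chance gives such a gap in about 1 in 20 groups. These libraries come from different crosses and runs, so that rate need not hold here. The share of all features past this rule is not given. The lactoylglutathione lyase family protein (Contig18820), of the pathway that clears methylglyoxal, stood at 23.0 RPKM in SDf x SCNm 1 against 190.5 to 218 in the other hybrids, and SD libraries held 57.8, 13.9 and 30.5. Glutathione synthetase (Contig22825) was at 25.1 and the transferase C-terminal domain protein (Contig24685) at 13.7 RPKM in the same library, above the other hybrids at 14.7 to 16.0 and 10.3 to 10.8. SDf x SCNm 1 was the only library of run 4, so run and library cannot be told apart. Thioredoxin-like protein 4a (Contig11634) was at 112 RPKM in SCNf x SDm 1, below 155 to 161 in the others. Mitochondrial superoxide dismutase (Contig6365) was at 487 RPKM in SCNf x SDm 2, above 336 to 359.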

How the results depend on the processing

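Of 2203 tested values of named genes under alternatives, 2123 stayed on their side of the threshold, 52 lost a call and 28 gained one (each without SCN 1). The sign differed in 119, none of them called in either fit. Of 94 within-run differences of the parents, 36 lay further from the main estimate than the pooled standard deviation of single parental libraries. Each such difference compares single libraries and so varies more than that. The parental replicates of a group also came from different runs, so that standard deviation already holds any difference between runs. The count therefore cannot show whether runs shifted the parental difference. Hybrids against the midparent gave 110 features as reported, 193 with pseudocount 5, 170 under quantile normalization, 2 with the added constant removed and 0 to 2985 when libraries were left out in turn. The 5 members called became 3 under quantile normalization, 0 of the 4 that could be fitted with the constant removed (log2 1.45 to 2.32, adjusted p 0.0573 to 0.0798, Contig10970 not fitted), 1 without both run 3 libraries and 0 to 19 when libraries were left out. SD against SCN gave 59 features as reported, 95 under quantile normalization, 7 with only the groups compared, 161 with run as a block and 11 to 3085 when libraries were left out, with 0 to 15 members. The highest counts all came without SCN 1, and the cause was not tested.

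Quantile normalization moved the median of all features from log2 0.23 to 0.03 for the parents and from 0.15 to -0.07 for the hybrids. With the replicate block, 10 features passed between the parents, and 55 features and 1 member (Contig1767cap) passed between hybrids and midparent. Deviations of the same number correlated at 0.23 for SD 1 and SCN 1, which also share run 1. The correlations were -0.18 for SD 2 and SCN 2, which come from different runs, and -0.55 between crosses. They held no uniform sign, so the numbers were not taken as pairs. SD 3 and SCN 2, which share run 3 but not a number, correlated at 0.32. Deviations of both SCN libraries mirror each other, so the parental values are not independent. With the crosses paired the other way in the 4 hybrid libraries, an alternative chosen after seeing the data, 41 features (17 higher, 24 lower) and 0 members passed. Depth limits SD 3 and SCN 2 most, where 7.37% and 8.10% of features had 0 reads.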
